A study of Mus musculus with 18 samples.

Results

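Regulatory T cells (Treg) taken from B16F10 melanoma were compared with Treg taken from spleen. The samples were chosen by their labels, 3 tumour Treg arrays and 3 spleen Treg arrays, which made 6 of the 18 arrays of the series, and the comparison covered every named probe detected on at least 3 of the 18 arrays, 22409 probes for 14581 genes. Tumour Treg were CD4+ CD25+ Foxp3+ cells without CD8 and CD11b from a subcutaneous B16F10 tumour, a transplantable mouse melanoma line, and spleen Treg were cells of the same gate from the spleen. All mice were female C57BL/6 carrying the allele labelled Foxp3-GFP-DTR-CD90.1, had received 50000 B16F10 cells under the skin, and were used when tumours were about 10 mm across, so that the spleen cells also came from tumour-bearing mice. Cells were pooled before sorting, and the sources used here do not say whether the 3 replicates came from separate animals, so the p-values reflect only how these samples varied, which may be technical. The conventional CD4 (CD4+ cells sorted without Foxp3) and CD8 T cells of the same tumours and spleens, 3 arrays in each group, were used where a Treg difference was set against theirs.

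Treg restrain other lymphocytes and depend on the transcription factor Foxp3, whose loss causes fatal autoimmunity in mice. In lymphoid organs many are in a resting state, marked by factors such as Bach2 and Lef1 and by receptors for recirculation. In peripheral tissues and tumours Treg are known to take on an activated state, with factors such as Prdm1 (Blimp-1), costimulatory receptors of the TNF receptor family and the cytokine Il10.

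Values are log2 intensities after background correction and quantile normalization, in which the lowest detected signal of an array lay between 4.20 and 4.25, and differences are tumour minus spleen with their SE. Tests used limma with p-values adjusted by Benjamini-Hochberg over all named probes and a threshold of 0.05, and a gene was called when a probe of it passed and none passed the other way. In tumour Treg 402 genes were called against spleen Treg (2.76% of those tested). Of these, 287 were higher in tumour Treg (1.97%) and 115 were lower (0.789%). Among probes 500 passed (2.23%), of which 499 differed in 1 direction on all 3 BeadChips. Passing the test favours such agreement and groups that do not overlap, so neither is separate evidence. The count rested on the spleen arrays more than on others, with 261, 243 and 262 genes without spleen Treg replicate 1, 2 or 3. Among the 402 genes 208 had several probes, and for 173 of these only some of the probes passed. The mean signal of the arrays was 147 ± 10.7 in tumour Treg and 129 ± 11.5 in spleen Treg (SD, n = 3 each). When arrays were scaled to equal medians instead, the median of all probes moved by 0.13, and the called genes became 655 higher and 50 lower, so that 92.9% were higher, against 71.4% with quantile normalization. Directions of rises and falls below are therefore relative to the bulk of the probes. The counts called in each list below are to be read against the 2.76% of all genes. Rises of a list with median scaling stand against the 655 rises among all 14581 genes.

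Every group had the same position on each BeadChip, so tissue and position cannot be told apart. In the fits that left out 1 Treg array each gene was followed on 1 probe. This was its called probe of largest difference, where it had one. A gene lost on that probe may still be called by another of its probes. Of the 127 genes so followed, 112 were called with all arrays, and 79 of these passed in each of those 6 fits. The remaining 33 are given below with the fits they were lost in. A fit of the 6 Treg arrays alone, which has fewer arrays to estimate the spread, called 315 genes and ended 29 of the 112 calls, 8 of them among the 79 genes. These 8 are given below with their values, and the other 21 were among the 33 (Alas2, Bid, Btla, Ccr7, Dct, Hba-a1, Hbb-b1, Itga2, Itga6, Itgav, Klrg1, Ldha, Maf, Nfkb2, Plod2, Ptpn6, Rora, Tnfsf11, Tyrp1, Vegfa and Zbtb32). With only the brightest probe of each gene 11 calls ended beside that of Foxp3, whose probes are given below, 7 of them among the 79 genes and also given below, and the other 4 were Hbb-b1, Ikzf1, Plod2 and Usp18.

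The sorted cells of both groups had signal for Foxp3 and Cd3e, while that for CD25 was close to the lowest detected. Foxp3 had 9.30, 9.31 and 9.12 in tumour Treg and 8.52, 8.24 and 8.27 in spleen Treg on the probe that separates Treg from other T cells, which averaged 4.23 in conventional CD4 cells of the tumour and 4.19 in those of the spleen. All 3 tumour arrays lay above all 3 spleen arrays, a difference of 0.90 ± 0.12 (adjusted p = 0.000747). This was the only one of its 4 probes to pass. Of the others, 2 were at similar levels in conventional CD4 cells and 1 was not detected on any Treg array. The brightest of these other probes had a difference of -0.68 (adjusted p = 0.337). Cd3e, a chain of the T cell receptor complex, had 10.39, 10.42 and 10.21 in tumour Treg and 10.39, 10.34 and 10.38 in spleen Treg, which overlap. Cd4 (0.26 ± 0.17, adjusted p = 0.655) and Thy1 (0.37 ± 0.15, adjusted p = 0.311) did not pass. The Il2ra probe, for CD25, was at 4.28 to 4.58 in tumour Treg and 4.19 to 4.48 in spleen Treg, close to the lowest detected signal in cells sorted on that protein. Itgam, for CD11b, was detected on 1 tumour Treg array and on 0 spleen Treg arrays. Cd8b1, for a CD8 chain, did not pass (0.32, adjusted p = 0.915).

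The largest rises in tumour Treg were a chemokine, a lectin, transcription factors and lipid and matrix genes. Ccl4, an inflammatory chemokine, had 9.89, 8.95 and 9.20 in tumour Treg and 4.85, 5.00 and 4.27 in spleen Treg, a difference of 4.64 ± 0.56 (adjusted p = 0.000242). Fosl2, a Fos family subunit of the AP-1 transcription factor, had 8.73, 9.62 and 9.70 in tumour Treg and 5.48, 5.12 and 5.17 in spleen Treg, a difference of 4.09 ± 0.28 that was called on 3 of 3 probes. For neither gene did the groups overlap. Dgat1, which makes triglyceride, differed by 3.10 ± 0.21, and Crem, a cyclic AMP responsive factor, by 3.09 ± 0.29 on the highest of 3 called probes out of 4. Lmna, which encodes the nuclear lamins A and C, had 9.43, 9.12 and 9.21 in tumour Treg and 6.25, 5.90 and 6.41 in spleen Treg on its probe of largest difference, 3.07 ± 0.35, and all 5 of its probes were called. Gas7 was not detected on any spleen Treg array and was at least 8.37-fold higher in tumour Treg (adjusted p = 0.000253, 1 of 3 probes). That bound was used for a gene whose described probe was undetected on all arrays of 1 group. It sets the mean of the brighter group against that of the dimmer one. Each array of the dimmer group enters with the probe's value or the array's lowest detected signal, whichever was higher. Fam83g, a scaffold protein of casein kinase 1, differed by 3.26 ± 0.35.

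Among the 12 largest rises were textbook genes of macrophages and genes that spread widely over the tumour arrays. Clec10a, a macrophage and dendritic cell lectin, had 8.23, 8.96 and 8.86 in tumour Treg and 4.08, 4.35 and 4.25 in spleen Treg, a difference of 4.46 ± 0.33. Gpnmb, found in macrophages and pigment cells, differed by 3.37 ± 0.31 and Mmp12, the macrophage elastase, by 3.14 ± 0.38. Between tumour and spleen Clec10a also differed by 4.70 in conventional CD4 cells and by 4.51 in CD8 cells. Lpl, lipoprotein lipase, had 9.13, 8.00 and 6.86 in tumour Treg and 4.66, 4.14 and 4.19 in spleen Treg (3.66 ± 0.47), and Emp1, an epithelial membrane protein, had 8.71, 7.51 and 6.20 in tumour Treg and 4.13, 4.49 and 4.23 in spleen Treg (3.19 ± 0.51). For both genes tumour replicate 1 was the highest and replicate 3 the lowest, and Emp1 did not pass with the Treg arrays alone (adjusted p = 0.0623).

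**Figure D1:**
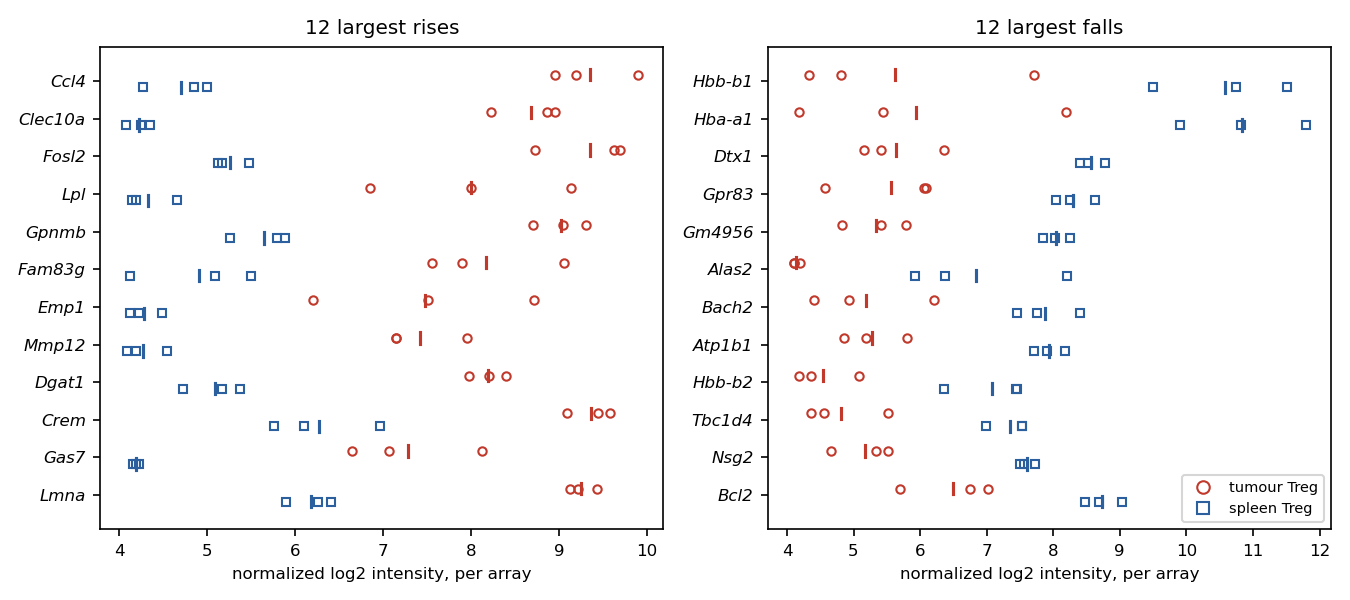
Normalized log2 intensity on each array for the 12 genes that rose most and the 12 that fell most, with tumour Treg as red circles, spleen Treg as blue squares and the group mean as a bar. In each gene shown all 3 tumour arrays lie on 1 side of all 3 spleen arrays, and Hbb-b1 and Hba-a1 spread widely in both groups. The genes were picked among those called in 1 direction on all 3 BeadChips, which favours this separation.

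The largest falls held haemoglobin genes and genes of resting T cells. Dtx1, an E3 ligase of the Notch pathway linked to T cell anergy in mice, had 5.16, 5.42 and 6.36 in tumour Treg and 8.53, 8.78 and 8.40 in spleen Treg, a difference of -2.92 ± 0.31 (adjusted p = 8.43e-05). Bcl2, which protects lymphocytes from apoptosis, had 7.02, 5.69 and 6.75 in tumour Treg and 9.04, 8.69 and 8.48 in spleen Treg, a difference of -2.25 ± 0.27 on 2 of 2 probes. The groups did not overlap for either gene. Gpr83, a receptor found on Treg, fell by 2.73 on 2 of 2 probes. Gm4956, a predicted gene, fell by 2.70 on 2 of 2 probes. Atp1b1, a subunit of the sodium pump, differed by -2.65, Tbc1d4, a Rab GTPase activator, by -2.54 on 1 of 2 called probes out of 3, and Nsg2, known from neurons, by -2.42. Each of these 7 genes passed in all 6 fits that left out 1 array.

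The haemoglobin genes and Alas2, the first enzyme of haem synthesis in red cell precursors, were lower in tumour Treg. The described probes of Hbb-b1, Hba-a1 and Alas2 were unsteady. Hbb-b1, of the beta-globin locus, had 7.71, 4.33 and 4.81 in tumour Treg and 11.51, 9.50 and 10.75 in spleen Treg, a difference of -4.97 ± 1.14 (adjusted p = 0.0326). Its described probe, 1 of 8 called out of 11, passed in only 1 of the 6 fits, the one without tumour replicate 1. Of the erythroid markers 2 or 3 still fell in each of those fits. Hba-a1 differed by -4.89 ± 1.20 (adjusted p = 0.0466) and was likewise called only without tumour replicate 1, and it was not called with median scaling (adjusted p = 0.0537). Alas2, undetected in tumour Treg, was at least 6.12-fold lower there (adjusted p = 0.0356) and was lost in 5 fits, all but the one without spleen replicate 2. Hbb-b2, which fell by 2.55, passed in all 6. Globin copies are nearly identical, so which copy a probe reads is uncertain. The 6 measured erythroid markers summed to 105.6 to 1156 in tumour Treg and 3503 to 11990 in spleen Treg. In a bulk sample, fewer cells of a type and less RNA per cell cannot be told apart.

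Markers of other cells moved between the groups as well. The summed intensity of 20 macrophage and monocyte markers was 3849, 2908 and 2106 in tumour Treg and 1538, 639.7 and 489.6 in spleen Treg, so tumour arrays were higher on every BeadChip. Of these markers 4 rose (Clec10a, Gpnmb, Mmp12 and Fcer1g), and the median over the 30 probes of all 20 was 1.15, against -0.0007 over all probes. The first 3 were also among the 12 largest rises, and the markers were chosen with earlier results of these data known. Their calls are therefore not independent of the choice of markers. Fcer1g, the Fc receptor gamma chain, was at least 2.28-fold higher in tumour Treg (adjusted p = 0.0276), and was lost in each of the 6 fits. Lyz2, lysozyme of myeloid cells, had 8.78, 7.47 and 6.91 in tumour Treg and 6.98, 4.33 and 4.15 in spleen Treg, and did not pass without the BeadChip in the fit (adjusted p = 0.128) but did with it as replicate block (adjusted p = 0.00315) and without spleen replicate 1 (adjusted p = 0.023). Lyz2 also passed with median scaling (adjusted p = 0.0291). Its near copy Lyz1 had 9.42, 8.20 and 7.48 in tumour Treg and 7.51, 5.13 and 4.46 in spleen Treg, which overlap (adjusted p = 0.197 without the block, 0.00762 with it). The 11 melanocyte markers, which also hold Gpnmb, summed to 1592 to 2047 in tumour Treg and 763.6 to 931.3 in spleen Treg. Of these 4 rose, Gpnmb, Dct, Pmel and Tyrp1. Dct, an enzyme of pigment synthesis, differed by 1.95 ± 0.46, and Pmel, a pigment granule protein, by 2.25 ± 0.54. Tyrp1 was undetected in spleen Treg and at least 2.37-fold higher in tumour Treg. Each of these last 3 was lost in 5 of the 6 fits, and Pmel also under the block (adjusted p = 0.0613). The T cell markers summed to 7377 to 8050 in tumour Treg and 7085 to 7568 in spleen Treg. Limma called 0 of 7, and 1 had an unadjusted p under 0.05 (14.3%, against 14.2% of all genes tested). The part of these other markers in the results below was not tested.

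**Figure D2:**
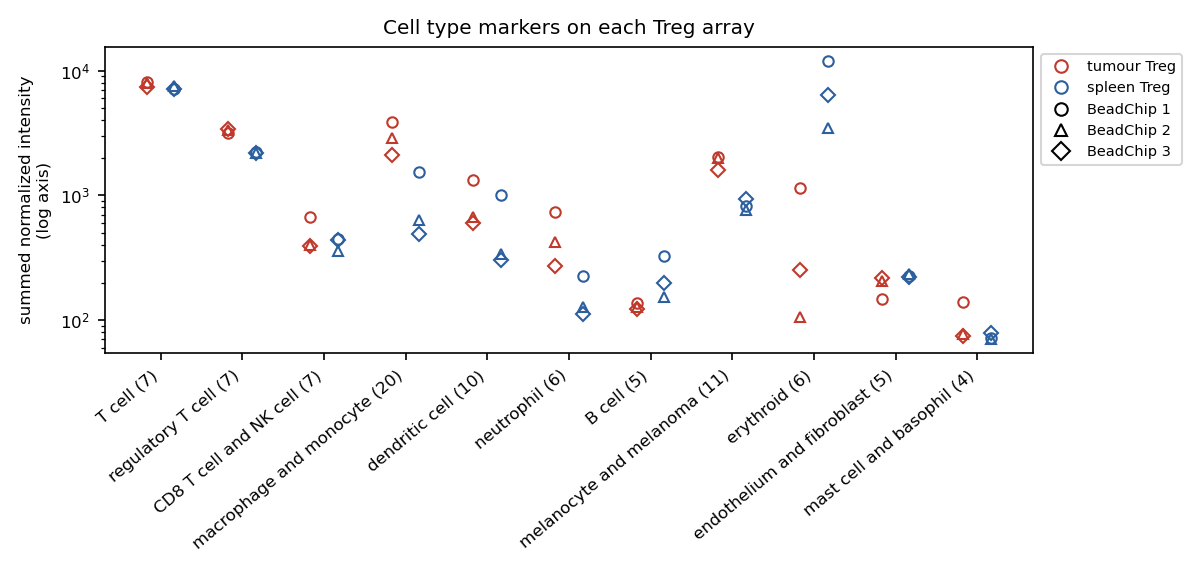
Summed normalized intensity, on a log axis, of the measured markers of each cell type (their number in brackets) on each tumour Treg array (red) and spleen Treg array (blue), with the BeadChip given by the symbol. Macrophage and melanocyte sums are higher on all 3 tumour arrays, and erythroid sums on all 3 spleen arrays.

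Genes of effector and tissue Treg had the second largest share of calls among the 35 lists of programmes. Rises numbered 13 and falls 0 among 22 measured genes, 59.1% against the 2.76% of all genes, and the probe median was 0.72. Some genes stand in several lists, so the counts of lists are not independent. Prdm1, Maf, Rora and Id2 rose here and are counted again among the effector factors below. The lists were also chosen with earlier results of these data known. Icos, a costimulatory receptor, had 8.92, 8.51 and 8.88 in tumour Treg and 7.43, 7.62 and 7.81 in spleen Treg (1.15 ± 0.18, adjusted p = 0.00176). Ccr8, a chemokine receptor of tissue Treg, had 7.64, 6.74 and 6.95 in tumour Treg and 5.08, 5.52 and 5.25 in spleen Treg (1.83 ± 0.26, adjusted p = 0.00104). In both genes the tumour arrays stood apart from the spleen arrays. Tnfrsf9, the costimulatory receptor 4-1BB, had 8.72, 8.41 and 8.52 in tumour Treg and 6.79, 5.83 and 6.66 in spleen Treg (2.12 ± 0.36). The decoy receptor gene Il1r2, which takes up interleukin-1, had 9.52, 7.73 and 7.90 in tumour Treg and 6.74, 5.40 and 5.69 in spleen Treg (2.44 ± 0.42), highest on BeadChip 1 in both groups, and did not pass with the Treg arrays alone (adjusted p = 0.115). Glrx, glutaredoxin, differed by 1.65 ± 0.24 and Samsn1, a signalling adaptor, by 1.20 ± 0.18, while the brightest Samsn1 probe did not pass (1.51, adjusted p = 0.0577). Klrg1, a lectin-like receptor of differentiated T cells, differed by 1.65 ± 0.36 (adjusted p = 0.0248), but passed only without tumour replicate 1. The count was 9 without spleen Treg replicate 2.

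The genes used to define Treg went both ways. Of 16 measured, 3 rose and 2 fell (31.2%, against 2.76% of all genes tested). Besides Foxp3, Tnfrsf18, the costimulatory receptor GITR, rose by 1.02 ± 0.17 on 2 of 2 probes. Ctla4, an inhibitory receptor central to Treg function, had 8.03, 8.25 and 8.47 in tumour Treg and 7.31, 7.42 and 7.36 in spleen Treg (0.89 ± 0.18, adjusted p = 0.0159), and passed only in the fit without tumour replicate 1. The falls were Gpr83, given above, and Izumo1r (folate receptor 4), with 5.38, 5.55 and 5.76 in tumour Treg and 7.43, 7.41 and 7.48 in spleen Treg (-1.88 ± 0.23, adjusted p = 0.000302), called on 3 of 3 probes. The number of rises was 2 without tumour replicate 2 or any 1 spleen array, 5 with the BeadChip block and 6 with median scaling. One gene added under the block was Itgae, the CD103 integrin chain, which had 6.19, 5.97 and 5.62 in tumour Treg and 5.22, 5.37 and 5.03 in spleen Treg (0.72 ± 0.19, adjusted p = 0.0756 without the block, 0.0345 with it). It also passed without tumour replicate 3 (adjusted p = 0.0414), with median scaling (adjusted p = 0.00313), with the deposited value table (adjusted p = 0.0324) and with an offset of 50 (adjusted p = 0.0383).

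Among mediators of suppression 4 of 14 measured genes rose and 0 fell (28.6%, against 2.76% of all genes tested), and 9 rose with median scaling. Il10 had 7.60, 7.91 and 7.35 in tumour Treg and 4.75, 4.99 and 5.56 in spleen Treg, with no overlap and a difference of 2.52 ± 0.18 (adjusted p = 3.36e-06). Fgl2, a secreted fibrinogen-like protein with inhibitory action, had 7.54, 7.78 and 7.95 in tumour Treg and 4.63, 5.55 and 5.53 in spleen Treg (2.52 ± 0.26). Havcr2, the inhibitory receptor TIM-3, had 6.94, 6.47 and 6.37 in tumour Treg and 4.15, 4.84 and 4.21 in spleen Treg (2.19 ± 0.21) on the higher of 2 called probes. The groups were apart in all 3 genes. Lgals1, galectin-1, was high in both and differed by 1.33 ± 0.21. Of 13 inhibitory receptors 4 rose and 2 fell, but the rises came to 2 without tumour Treg replicate 3, 1 without spleen Treg replicate 1 or 3, and 2 without spleen replicate 2. The falls were Cd96 (-1.58 ± 0.21), a receptor for nectin family ligands, and Btla (-1.29 ± 0.30), which binds a TNF receptor family member. Btla passed in 2 of the 6 fits, those without tumour replicate 2 or 3, and not with median scaling (adjusted p = 0.34).

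The transcription factors that were called split by the state they belong to. Of 21 effector factors 10 rose, 0 fell and 11 were not called, and the probe median was 1.11. Those not called included Batf (0.26, adjusted p = 0.815), Irf4 (0.19, adjusted p = 0.93) and Irf8 (1.55, adjusted p = 0.118). The rises were Fosl2, Crem, Bhlhe40, Hif1a, Prdm1, Id2, Tbx21, Rora, Maf and Zbtb32. Bhlhe40, a repressor active in T cell cytokine production, had 8.79, 8.32 and 8.22 in tumour Treg and 5.96, 5.08 and 5.71 in spleen Treg (2.86 ± 0.25, adjusted p = 1.84e-05). Prdm1, which directs effector Treg, had 7.66, 7.74 and 7.21 in tumour Treg and 5.17, 4.45 and 5.97 in spleen Treg (2.34 ± 0.30). No tumour array overlapped a spleen array in either gene. Tbx21, the type 1 lineage factor T-bet, differed by 2.15 ± 0.40 and Id2, an inhibitor of E proteins, by 2.07 ± 0.35. Rora (1.81 ± 0.42), Maf (1.14 ± 0.27) and Zbtb32 (1.09 ± 0.24) passed in 2, 2 and 3 of the 6 fits. Rora was lost without tumour replicate 2 or 3 or spleen replicate 1 or 2, Maf without tumour replicate 1 or 2 or spleen replicate 2 or 3, and Zbtb32 without tumour replicate 2 or spleen replicate 2 or 3. Under the BeadChip block Rora had an adjusted p of 0.0518.

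Of 15 factors of the resting state 0 rose, 4 fell and 11 were not called, with a median of -0.49 over the probes and 5 of 35 probes above 0. Bach2, a repressor that holds T cells in a naive state, had 4.41, 4.93 and 6.21 in tumour Treg and 8.40, 7.45 and 7.76 in spleen Treg (-2.69 ± 0.37, adjusted p = 0.000807), but did not pass with the Treg arrays alone (adjusted p = 0.0589). Lef1, a partner of beta-catenin in T cell development, had 5.82, 6.81 and 6.69 in tumour Treg and 8.54, 8.18 and 8.60 in spleen Treg (-1.995 ± 0.41, adjusted p = 0.0156). These are values of 1 of 2 called probes out of 4. That probe passed in 3 fits, being lost without tumour replicate 1 or spleen replicate 1 or 3. Both genes had tumour values wholly below those of spleen. Klf3 (-1.28 ± 0.25) was lost without spleen replicate 1 (adjusted p = 0.0582). Ikzf1, or Ikaros (-0.79 ± 0.18 on 1 of 2 called probes out of 4), passed on that probe only without tumour replicate 1. Neither passed with median scaling (adjusted p = 0.226 for Klf3 and 0.643 for Ikzf1). Satb1, a chromatin organizer needed for thymic Treg development, had 4.78, 4.93 and 5.00 in tumour Treg and 6.01, 6.11 and 6.12 in spleen Treg, and did not pass (adjusted p = 0.0786), but did with the BeadChip block (adjusted p = 0.0296) and in a fit of the Treg arrays alone (adjusted p = 0.012). The count of falls was 2 without spleen Treg replicate 1, 2 with median scaling and 6 with the BeadChip block.

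Genes of lymphoid homing and egress gave 1 rise and 5 falls among 15, with a median of -0.49. Il6ra, the interleukin-6 receptor, had 8.20, 7.97 and 8.18 in tumour Treg and 8.95, 9.16 and 9.02 in spleen Treg (-0.93 ± 0.16, adjusted p = 0.00449). Igfbp4, a binding protein of insulin-like growth factors and a mark of naive T cells, fell by 1.95, and did not pass with the Treg arrays alone (adjusted p = 0.0947). Ccr7, the receptor that leads T cells into lymph nodes, had 6.97, 6.67 and 7.50 in tumour Treg and 7.92, 7.98 and 7.97 in spleen Treg (-0.91 ± 0.21, adjusted p = 0.0321). Ccr7 passed only without tumour replicate 3, and the integrin chain Itga6 (-1.33 ± 0.31) only without tumour replicate 2 or 3. The rise was Il7r, the interleukin-7 receptor, with 7.65, 7.89 and 7.86 in tumour Treg and 7.31, 6.96 and 6.75 in spleen Treg (0.79 ± 0.14), and did not pass with the Treg arrays alone (adjusted p = 0.105). The count of falls was 3 without tumour replicate 1 or without any 1 of the spleen arrays, and 1 with median scaling, where Il6ra and Igfbp4 had adjusted p of 0.406 and 0.073.

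Of 15 chemokines 5 rose and 0 fell (33.3%, against 2.76% of all genes tested), with a probe median of 0.74. Beside Ccl4, Ccl5 had 8.44, 8.45 and 8.23 in tumour Treg and 6.78, 6.43 and 6.53 in spleen Treg (1.79 ± 0.18, adjusted p = 6.75e-05). Ccl3 and Ccl9 were undetected in spleen Treg and were at least 2.45-fold and at least 5.47-fold higher in tumour Treg. Ccl7, a monocyte attractant, had 7.26, 6.36 and 5.76 in tumour Treg and 4.29, 4.09 and 4.18 in spleen Treg (2.27 ± 0.33). Ccl7 and Ccl9 were highest on tumour replicate 1, the array with the highest macrophage marker sum, and Ccl9 did not pass with the Treg arrays alone (adjusted p = 0.0702). Of 14 chemokine receptors 3 rose and 1 fell (28.6%), against 6 and 0 with median scaling. The fall was Ccr7, and Ccr2, the receptor for Ccl7 and related chemokines, was undetected in spleen Treg and at least 3.06-fold higher in tumour Treg (adjusted p = 0.00043). Of 25 cytokine receptor chains 5 rose and 1 fell, with a probe median of -0.06 and 23 of 50 probes above 0. With median scaling 7 rose and 0 fell, and without tumour replicate 3 the falls came to 3. Ifngr1, the ligand-binding chain of the interferon-gamma receptor, had 9.77, 10.01 and 10.01 in tumour Treg and 8.50, 8.21 and 8.20 in spleen Treg (1.62 ± 0.20). Both chains of the interleukin-18 receptor rose, Il18r1 by 1.40 ± 0.23 and Il18rap by 1.31 ± 0.27, and Il18rap was lost without tumour replicate 2 or 3 or spleen replicate 1 or 2 (adjusted p up to 0.0726). Of 22 JAK, STAT and SOCS genes, which act below these receptors, 0 passed limma's test, 4 rose with median scaling, and 5 had an unadjusted p under 0.05 (22.7%, against 14.2% of all genes tested).

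Of 21 NF-kappaB genes 5 rose and 0 fell, but only 1 did so without tumour Treg replicate 3 or without spleen Treg replicate 2, and the count was 2 without tumour replicate 2 or spleen replicate 3, 3 without tumour replicate 1, and 3 with the BeadChip block. Tnfaip3 (A20), a feedback inhibitor, had 7.24, 7.35 and 7.75 in tumour Treg and 5.99, 6.28 and 6.37 in spleen Treg (1.23 ± 0.20) and passed in all 6 fits. Nfkb2, the p100 subunit precursor (1.28 ± 0.31), passed only without spleen replicate 1, and not with the block (adjusted p = 0.0735). The TNF receptor adaptor Traf1 rose by 1.61 ± 0.24, while its brightest probe did not pass (0.71, adjusted p = 0.0933). Of 32 genes of T cell receptor signalling 2 rose and 2 fell, with 3 falls under the BeadChip block and 1 with median scaling. Sla, an adaptor that dampens the receptor, rose by 1.14 ± 0.19 on 1 of 3 probes, while its brightest probe did not pass (0.40, adjusted p = 0.626). Malt1, a protease of the pathway to NF-kappaB, differed by 1.31 ± 0.25 and was lost without tumour replicate 2 (adjusted p = 0.0563) or spleen replicate 1 (adjusted p = 0.0602). The falls were Dtx1 and the phosphatase Ptpn6 (SHP-1), which differed by -0.81 ± 0.15, was lost without spleen replicate 1 (adjusted p = 0.0576) and did not pass with median scaling (adjusted p = 0.626).

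Survival and death genes gave 2 rises and 1 fall among 19. The fall was Bcl2. Apaf1, the scaffold of the apoptosome, had 7.71, 7.75 and 7.71 in tumour Treg and 6.38, 6.07 and 5.82 in spleen Treg (1.64 ± 0.28, adjusted p = 0.00388). Bid, which links death receptors to mitochondria, differed by 0.89 ± 0.18, and was lost without tumour replicate 1 or 3 or spleen replicate 1 (adjusted p up to 0.0927). Of 35 cell cycle genes 2 rose (5.71%, against 2.76% of all genes tested), and 5 did with median scaling. The 2 called with quantile normalization were Cdkn1a (p21), an inhibitor of cyclin-dependent kinases, with 7.23, 6.71 and 6.31 in tumour Treg and 4.12, 4.41 and 4.19 in spleen Treg (2.51 ± 0.31), and Cenpa, a centromeric histone (1.23 ± 0.27, adjusted p = 0.0276), which was lost in each of the 6 fits. Mki67, the proliferation marker Ki-67, did not pass (0.56 ± 0.14, adjusted p = 0.0555), but did without tumour replicate 1 (adjusted p = 0.0169), with median scaling (adjusted p = 0.0181), without the detection filter (adjusted p = 0.0415) and with an offset of 50 (adjusted p = 0.0486).

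**Figure D3:**
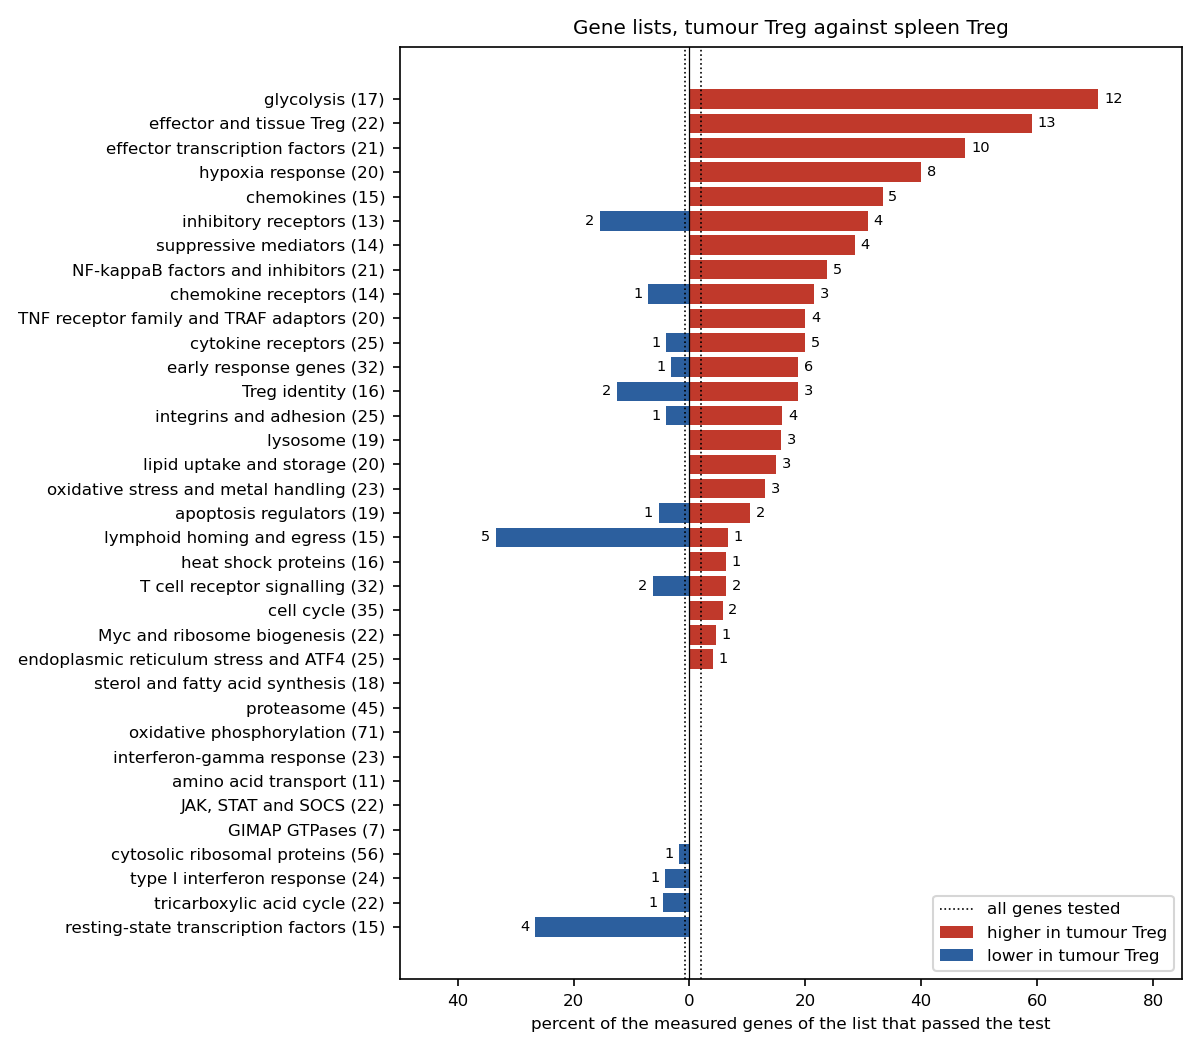
Percent of the measured genes of each list that were higher (red, to the right) or lower (blue, to the left) in tumour Treg, with the number of genes at the bar's end and the number measured in brackets. Dotted lines mark 1.97% higher and 0.789% lower among all genes tested, and glycolysis has the largest share, 12 of 17.

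Glycolysis was the list with the largest share of calls. Rises numbered 12 and falls 0 among 17 measured genes, 70.6%, and the probe median was 0.97, with 27 of 29 probes above 0. The rises included the glucose transporters Slc2a1 and Slc2a3 and the lactate exporter Slc16a3. The others were the enzymes Pfkl, Aldoa, Aldoc, Tpi1, Gapdh, Pgk1, Pgam1, Pkm and Ldha. Among the 5 genes not called were Hk1, Pfkm and Pfkfb3. Slc2a1, the transporter GLUT1, had 9.66, 9.82 and 9.92 in tumour Treg and 8.11, 8.15 and 8.21 in spleen Treg (1.65 ± 0.19, adjusted p = 0.000162). Tpi1, triose phosphate isomerase, had 9.85, 9.75 and 9.89 in tumour Treg and 7.84, 7.53 and 7.58 in spleen Treg (2.18 ± 0.19). In both genes each group spread over less than the gap between the groups. Pgk1, which makes the first ATP of the pathway, had 9.59, 9.80 and 10.05 in tumour Treg and 8.06, 8.11 and 8.28 in spleen Treg (1.67 ± 0.21). Slc16a3 (MCT4) had 7.06, 7.10 and 6.36 in tumour Treg and 4.59, 4.27 and 4.30 in spleen Treg (2.45 ± 0.25), and Aldoc, an aldolase, had 6.47, 6.74 and 6.59 in tumour Treg and 4.33, 4.42 and 4.29 in spleen Treg (2.25 ± 0.16). Ldha, which turns pyruvate into lactate, was bright in both groups, with 11.31, 10.88 and 10.78 in tumour Treg and 10.40, 10.24 and 10.12 in spleen Treg (0.74 ± 0.14), and it was lost without spleen replicate 3 (adjusted p = 0.0551). Pgam1 did not pass with the Treg arrays alone (adjusted p = 0.0588). Pfkl and Slc2a3 were each lost in all 6 fits that left out 1 array, with adjusted p up to 0.191 and 0.112. The count of rises was 9 or 10 in those fits.

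Of 20 hypoxia response genes 8 rose and 0 fell, namely Hif1a, Ankrd37, Ndrg1, Mxi1, Bhlhe40, Rora, Plod2 and Vegfa. Hif1a, the factor stabilized at low oxygen, had 7.79, 8.29 and 8.10 in tumour Treg and 6.22, 6.47 and 6.41 in spleen Treg (1.69 ± 0.15, adjusted p = 2.93e-05) on 1 of 2 probes, and the brighter one had 1.27 (adjusted p = 0.0555 among all probes). Ankrd37, a target of that factor, had 7.53, 7.71 and 8.10 in tumour Treg and 6.00, 5.23 and 5.47 in spleen Treg (2.21 ± 0.31), and Ndrg1, a stress response gene, had 7.05, 6.57 and 6.79 in tumour Treg and 4.59, 4.57 and 5.26 in spleen Treg (2.00 ± 0.24). The groups were apart in each of these genes, while the brightest Ndrg1 probe did not pass when it stood for the gene (1.62, adjusted p = 0.0627). The called probe of Mxi1, a partner of Max, was undetected in spleen Treg and at least 2.15-fold higher in tumour Treg, while its brighter probe, detected in both, did not pass (1.65, adjusted p = 0.0619 with 1 probe per gene). Those of Plod2, a collagen-modifying enzyme, and Vegfa, the vascular growth factor, were also undetected there and were at least 1.88-fold and at least 1.37-fold higher, while another probe of each gene was detected on at least 1 spleen array. Plod2 was called only without tumour replicate 3 and Vegfa only without tumour replicate 1, and under the block Vegfa had an adjusted p of 0.0517. The count of rises was 5 without spleen Treg replicate 1 or 2. It was 6 with the BeadChip block. Hilpda, a lipid droplet protein induced at low oxygen and kept in the lipid list, had 6.43, 6.23 and 6.96 in tumour Treg and 4.70, 4.89 and 4.65 in spleen Treg (1.79 ± 0.27) on 1 of 2 probes, and the brighter one did not pass when it stood for the gene (1.18, adjusted p = 0.171). With Lpl and Dgat1 it made up the 3 rises among 20 lipid genes (15.0%), which came to 5 with median scaling.

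**Figure D4:**
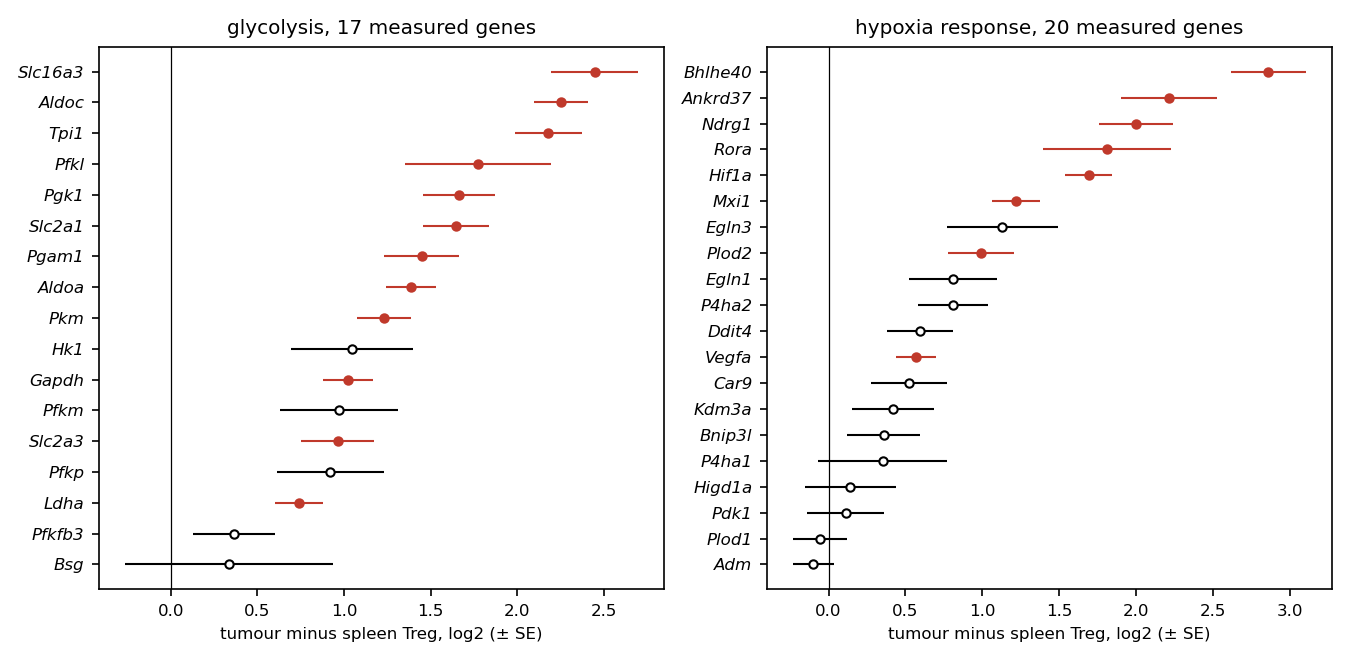
Tumour minus spleen Treg difference on the log2 scale, with its SE, for each measured gene of the glycolysis list and of the hypoxia list, filled red where the gene passed the test. The 12 and 8 called genes all lie to the right of 0, and each gene is shown by 1 probe.

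Hypoxia-inducible factors bind sites with the core ACGTG in front of many of these genes, and AP-1, of which Fosl2 is a subunit, binds TGANTCA. Promoter windows from 250 bases before to 50 after a gene's start were taken from RefSeq (GRCm38.p6) and searched on both strands for these motifs and for TGACGTCA, the site of cyclic AMP responsive factors. Of the 20 called glycolysis and hypoxia genes 16 had a window, and 14 of these (87.5%) held ACGTG, against 10 of 15 (66.7%) of the genes of both lists that were not called and 27.5% of the tested genes with a window. Of the 12 largest rises 6 had a window, and 4 of these (Emp1, Gpnmb, Lmna and Mmp12) held TGANTCA, against 7.07% of the tested genes, while 0 held ACGTG. Some genes have several windows and count if any of them matches. By window, ACGTG was in 66.7% for the called glycolysis and hypoxia genes, 52.2% for those not called and 23.9% for the tested genes. TGANTCA was in 44.4% of the windows of the 12 largest rises, against 5.95% for the tested genes. The motif match describes the letters only. The 3 windows of glycolysis genes below show where ACGTG lies, and those of Emp1 and of Srxn1, given further on, show TGANTCA. Capitals mark each match, and CACGTG counts once on each strand.
Ldha, chr7:46845554-46845853, + strand: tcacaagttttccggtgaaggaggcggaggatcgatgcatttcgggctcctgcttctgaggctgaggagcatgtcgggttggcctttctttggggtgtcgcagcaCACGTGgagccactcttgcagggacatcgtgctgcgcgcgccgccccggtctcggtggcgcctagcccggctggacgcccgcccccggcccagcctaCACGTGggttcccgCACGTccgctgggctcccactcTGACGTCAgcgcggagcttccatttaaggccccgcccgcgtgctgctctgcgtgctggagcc
Slc16a3, chr11:120948817-120949116, + strand: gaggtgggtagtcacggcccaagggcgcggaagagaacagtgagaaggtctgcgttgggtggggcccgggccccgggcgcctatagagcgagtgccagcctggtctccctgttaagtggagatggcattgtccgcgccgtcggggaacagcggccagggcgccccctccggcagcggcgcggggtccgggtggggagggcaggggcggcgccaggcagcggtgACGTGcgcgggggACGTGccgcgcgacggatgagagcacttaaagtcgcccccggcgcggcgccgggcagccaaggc
Pgk1, chrX:106186850-106187149, + strand: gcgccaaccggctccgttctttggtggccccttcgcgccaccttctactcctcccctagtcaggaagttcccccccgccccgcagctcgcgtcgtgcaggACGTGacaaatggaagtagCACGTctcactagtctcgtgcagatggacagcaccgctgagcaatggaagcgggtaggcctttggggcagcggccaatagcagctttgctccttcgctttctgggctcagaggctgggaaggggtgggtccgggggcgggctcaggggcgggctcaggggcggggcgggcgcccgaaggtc
Emp1, chr6:135362681-135362980, + strand: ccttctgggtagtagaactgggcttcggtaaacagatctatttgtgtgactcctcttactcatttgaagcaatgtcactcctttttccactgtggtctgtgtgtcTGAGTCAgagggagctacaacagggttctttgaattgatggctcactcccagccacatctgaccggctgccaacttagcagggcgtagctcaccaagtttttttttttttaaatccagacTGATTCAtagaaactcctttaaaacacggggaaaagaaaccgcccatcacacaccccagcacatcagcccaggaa
Srxn1, chr2:152105274-152105573, + strand: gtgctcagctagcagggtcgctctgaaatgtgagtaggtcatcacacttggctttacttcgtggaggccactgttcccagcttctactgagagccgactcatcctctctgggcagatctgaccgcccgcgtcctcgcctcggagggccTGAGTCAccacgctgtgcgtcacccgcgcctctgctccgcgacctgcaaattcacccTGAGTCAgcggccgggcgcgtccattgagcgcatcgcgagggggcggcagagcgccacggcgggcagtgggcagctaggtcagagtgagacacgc
In the Ldha window ACGTG was found 5 times and TGACGTCA once, and in those of Slc16a3 and Pgk1 ACGTG was found 2 times each. Ldha and Emp1 each have a further window in the table, at another start, with 0 matches to the motifs.

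Other metabolic lists gave few calls. Of 71 oxidative phosphorylation genes 0 passed, with a median of -0.01. Of 22 genes of the tricarboxylic acid cycle 0 rose and 1 fell (4.55%). Sterol and fatty acid synthesis (18 genes), the proteasome (45), amino acid transport (11), the interferon-gamma response (23) and the GIMAP GTPases of lymphocyte survival (7) gave 0 calls in limma. An unadjusted p under 0.05 was found for 14.2% of all genes tested. Above that share were amino acid transport with 3 genes (27.3%) and the interferon-gamma response with 4 (17.4%). Below it were oxidative phosphorylation with 6 (8.5%), sterol synthesis with 2 (11.1%), the proteasome with 5 (11.1%) and GIMAP genes with 0. With median scaling the medians of oxidative phosphorylation and the proteasome were 0.39 and 0.37, or 0.26 and 0.24 above the median of all probes, and 2 oxidative phosphorylation genes and 1 proteasome gene rose. Those of the interferon-gamma response and of sterol and fatty acid synthesis were 0.57 and 0.59, or 0.45 and 0.46 above it, with 3 and 2 rises. Such excesses were not particular to these lists. T cell markers lay 0.2, T cell receptor signalling 0.22, the tricarboxylic acid cycle 0.23 and GIMAP genes 0.25 above the median of all probes. Ribosomal protein genes (-0.08) and Myc and ribosome biogenesis genes (-0.09) lay below it. The single falls of the tricarboxylic acid, ribosomal, early response and adhesion lists were not called with median scaling, nor was the first of these in any fit that left out 1 array. Of 56 cytosolic ribosomal protein genes 1 fell (1.79%), with a median of -0.23 and 15 of 85 probes above 0. That median was 0.05 with median scaling. Of 24 type I interferon genes 1 fell (4.17%). This was Usp18, a feedback inhibitor of the pathway, at 4.44, 4.12 and 4.93 in tumour Treg and 6.10, 6.43 and 6.25 in spleen Treg (-1.76 ± 0.39, adjusted p = 0.0248). Usp18 passed only without tumour replicate 3. Of 22 Myc and ribosome biogenesis genes 1 rose (4.55%). This was Odc1, the first enzyme of polyamine synthesis, with 11.82, 11.91 and 11.80 in tumour Treg and 10.07, 9.93 and 10.12 in spleen Treg (1.81 ± 0.14, adjusted p = 6.36e-06). Larger shares were called in some lists outside metabolism. The early response list gave 6 rises and 1 fall among 32 genes (21.9%, against 2.76% of all genes tested). The TNF receptor family and its adaptors gave 4 rises among 20, and lysosome genes 3 rises among 19 (15.8%), also above the share of all genes. Nearer to that share were heat shock proteins with 1 rise among 16 (6.25%) and endoplasmic reticulum stress with 1 among 25. Without spleen replicate 2 the early response rises came to 4, and the lysosome rises were 1 without tumour replicate 2 or spleen replicate 1.

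Of 23 genes for oxidative stress and metals 3 rose and 0 fell in tumour Treg (13.0%, against 2.76% of all genes tested), and 6 rose with median scaling. Srxn1, sulfiredoxin, which repairs oxidized peroxiredoxins, had 7.31, 6.39 and 7.03 in tumour Treg and 4.39, 5.05 and 4.22 in spleen Treg (adjusted p = 0.000164). Mt1, a metallothionein, had 8.05, 7.20 and 6.61 in tumour Treg and 5.11, 4.20 and 4.30 in spleen Treg (2.75 ± 0.39). Fth1, the heavy chain of ferritin, rose by 0.65 ± 0.11 on 2 of 2 probes, and did not pass with the Treg arrays alone (adjusted p = 0.0834). Of 25 integrin and adhesion genes 4 rose and 1 fell. Icam1, the ligand of LFA-1, had 8.71, 8.56 and 8.64 in tumour Treg and 7.46, 6.73 and 7.50 in spleen Treg (1.41 ± 0.23). The collagen receptor chain Itga2 (1.44 ± 0.33) passed only without tumour replicate 3 or spleen replicate 3, and the integrin chain Itgav (1.13 ± 0.23) was lost without tumour replicate 1 or 3 or spleen replicate 2. The count of rises was 2 without tumour replicate 1 or spleen replicate 2.

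Whether the difference of tumour and spleen was larger or smaller in Treg than in other T cells was tested as a difference of differences. It passed for 22 genes against conventional CD4 cells (0.151% of genes tested), 11 higher and 11 lower, and for 38 against CD8 cells (0.261%), 23 higher and 15 lower. The first count was 14 and 12 without spleen Treg replicate 1 or 3, and the second 21, 23 and 16 without spleen replicate 1, 2 or 3. Of the 402 genes called in Treg, 17 also differed from conventional CD4 cells, 24 from CD8 cells and 14 from both, of which 10 rose and 4 fell.

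The 10 rises that differed from both cell types were Fam83g, Lmna, Mmp9, Il10, Srxn1, Aldoc, Havcr2, Snx9, Neb and Piwil2. For Il10 the tumour minus spleen difference was 2.52 in Treg, 0.17 in conventional CD4 cells and 0.02 in CD8 cells, and the Treg difference exceeded the others by 2.35 ± 0.26 (adjusted p = 0.00145) and 2.50 ± 0.26 (adjusted p = 0.000623). For Aldoc the differences were 2.25 in Treg, 0.38 in conventional CD4 cells and 0.16 in CD8 cells, on the 1 of 2 probes that passed. Havcr2 passed on 2 of 2 probes against conventional CD4 cells and on 1 of 2 against CD8 cells. In the other cells Il10 averaged 4.26 and 4.08 in conventional CD4 cells of tumour and spleen and 4.16 and 4.14 in CD8 cells, close to the lowest detected signal, below which no difference is measured. Fam83g lay there as well, at 4.18 to 4.28, and differed by 0.06 and 0.04 in the other cells, while Havcr2 differed by -0.10 in conventional CD4 and 0.53 in CD8 cells. Lmna passed both tests on 2 of its 5 probes, and on the one detected in both Treg groups the differences were 1.81 in Treg, 0.44 in conventional CD4 cells and 0.32 in CD8 cells. Its brightest probe rose in all 3 cell types, by 3.07 in Treg, 1.66 in conventional CD4 and 2.38 in CD8 cells, and passed neither test (adjusted p = 0.588 and 0.797). Mmp9, a gelatinase of neutrophils and other cells, had 8.01, 7.57 and 6.96 in tumour Treg and 5.08, 4.65 and 4.35 in spleen Treg, with a difference of 2.82 against 0.01 and -0.09 in the other cells. The 6 neutrophil markers, which hold Mmp9, summed to 735.0, 423.5 and 272.9 in tumour Treg and 224.7, 126.9 and 110.8 in spleen Treg, and Mmp9 was the only one of them called. Snx9, a sorting nexin of endocytosis, rose by 1.92 ± 0.24. Neb, a giant actin-binding protein of muscle, rose by 1.42 ± 0.16 and Piwil2, a germline Piwi protein, by 1.41 ± 0.16, each on 1 probe.

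The 4 falls that differed from both were Gm4956, Tbc1d4, Zfp608 and Sh3bgrl2. Each passed these tests on only 1 of its probes, out of 2 for Gm4956, Zfp608 and Sh3bgrl2 and out of 3 for Tbc1d4. Gm4956 had 5.78, 4.83 and 5.41 in tumour Treg and 7.84, 8.03 and 8.26 in spleen Treg, and its difference was -2.70 in Treg and -0.09 in each of the other cell types. Tbc1d4 had 4.36, 4.56 and 5.52 in tumour Treg and 7.53, 7.00 and 7.53 in spleen Treg, a difference of -2.54 against 1.28 in conventional CD4 and 1.25 in CD8 cells, neither of which passed alone. Zfp608, a zinc finger protein, had a difference of -1.14 ± 0.14. The called probe of Sh3bgrl2 was undetected in tumour Treg and at least 1.62-fold lower there.

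**Figure D5:**
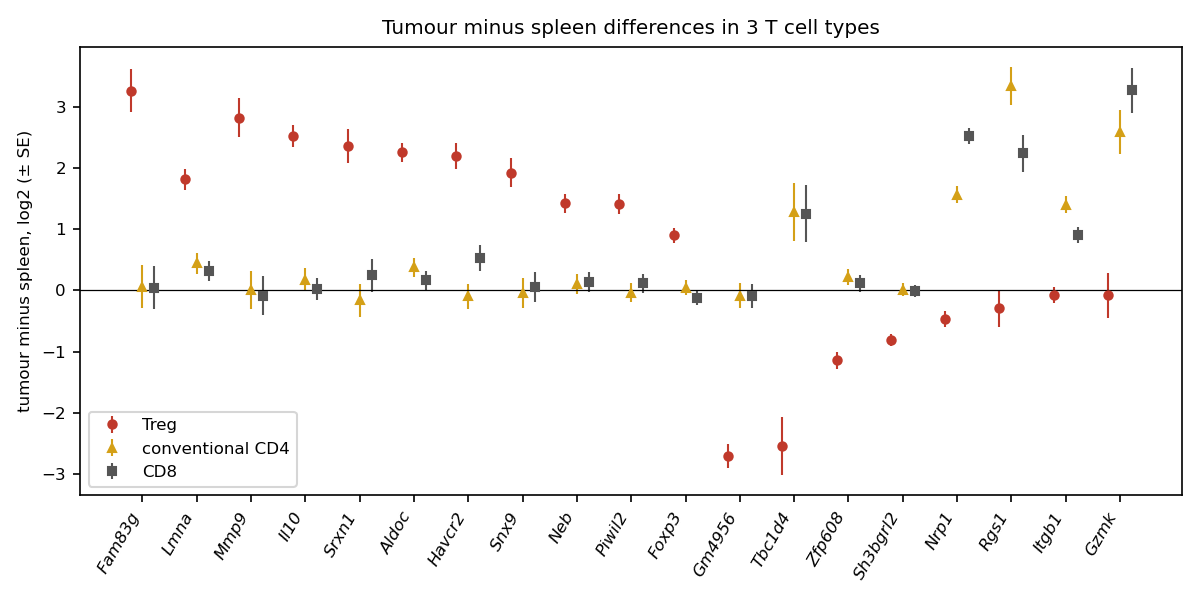
Tumour minus spleen difference on the log2 scale, with its SE, in Treg, conventional CD4 cells and CD8 cells for genes whose Treg difference passed a test against at least 1 of the other cell types. For the first 10 genes the Treg difference lies between 1.41 and 3.26 and the others between -0.16 and 0.53, while Nrp1, Rgs1, Itgb1 and Gzmk lie above 0 in the other cells and below 0 in Treg.

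A second set of genes moved in the other T cells and, apart from Tnfsf11, was not called in Treg. Nrp1, neuropilin-1, a receptor used to mark Treg of thymic origin in mice, had 8.67, 8.70 and 8.93 in tumour Treg and 9.19, 9.22 and 9.30 in spleen Treg (-0.47 ± 0.14, adjusted p = 0.106), while it rose by 1.56 in conventional CD4 cells and 2.52 in CD8 cells. In Treg Nrp1 fell with the deposited value table (-0.39, adjusted p = 0.0133), without background correction (adjusted p = 0.0116) and with an offset of 50 (adjusted p = 0.0199), and had 0.04 with median scaling. The Treg difference minus theirs was -2.03 ± 0.19 and -2.99 ± 0.19. Rgs1, a regulator of G protein signalling that limits chemokine responses, showed on its brightest probe a difference of -0.30 in Treg, 3.34 in conventional CD4 cells and 2.24 in CD8 cells. In both genes the levels of Treg were high in spleen already, at 9.24 for Nrp1 and 9.66 for Rgs1 in spleen Treg, against 6.18 and 5.40 in spleen conventional CD4 cells. Itgb1, the beta-1 integrin chain, differed by -0.07 in Treg and 1.40 in conventional CD4 cells on the probe that passed. Gzmk, granzyme K, was undetected in both Treg groups and rose by 3.27 in CD8 cells. Tnfsf11, the cytokine RANKL, had 4.67, 5.43 and 5.42 in tumour Treg and 5.94, 6.57 and 6.72 in spleen Treg (-1.23 ± 0.25), against a difference of 1.22 in conventional CD4 cells. Tnfsf11 was lost in Treg without tumour replicate 1 or spleen replicate 2 or 3 (adjusted p up to 0.0848) and with median scaling (adjusted p = 0.134).

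Against CD8 cells alone, Foxp3, Izumo1r, Odc1, Slc16a3, Ndrg1 and Itgae also differed. Foxp3 differed by 0.90 in Treg and -0.12 in CD8 cells, on 1 of 4 probes. In conventional CD4 cells that probe lay close to the lowest detected signal, as given above, so no rise was seen there. Slc16a3 differed by 2.45 in Treg and 0.39 in CD8 cells, and Ndrg1 by 2.00 in Treg and 0.04 in CD8 cells, each on 1 of 2 probes. Odc1 differed by 1.81 in Treg and 0.37 in CD8 cells. For Itgae the differences were 0.72 in Treg and -1.40 in CD8 cells. Of the glycolysis genes that rose in Treg, Aldoc and Slc16a3 passed a test of difference against another cell type, while Tpi1 rose in all 3 cell types, by 2.18 in Treg, 1.77 in conventional CD4 and 1.40 in CD8 cells.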

How the data were processed

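The 6 groups of 3 mouse samples each were hybridized to Illumina BeadChips, 18 arrays in all. The deposited intensity values were mean bead intensities per probe, neither background-corrected nor normalized, with a detection p-value per probe, per the file headers. The deposited value table held linear intensities of the same arrays, already normalized (the sources used here do not give the method). It served as an alternative. RNA was amplified from 2.5 ng by whole-transcript amplification, per the labels' protocols.

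Intensities were background-corrected (normexp, offset of 16), quantile-normalized and log2-transformed with neqc in limma 3.58.1 (R 4.3.3). Of 46237 probes, 35784 had 1 gene name and 10453 had none, from the platform annotation, and 28620 names were updated by Entrez ID and 2637 by accession. Named probes detected (p under 0.05) on at least 3 of 18 arrays were kept. Group means of all 18 arrays were fitted with lmFit and eBayes. P-values were adjusted over the 22409 probes by Benjamini-Hochberg, and the procedure was tested on simulated data. The arrays' number limits the precision. The lists and the genes followed were chosen with earlier results of these data known. Named were the sorting genes, the 12 largest rises and falls called in 1 direction on all BeadChips, list members, and up to 10 rises and 10 falls that differed from both other cell types.

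The replicate number marks a shared BeadChip in the labels, so it pairs the samples. Residuals of same-numbered samples correlated at 0.0435 on average, with 5 of 45 pairs over 0.1. Alternatives were median scaling, the deposited table, no background correction, an offset of 50, other probe filters, 1 probe per gene, the BeadChip as a block, the Treg arrays alone, and leaving out an array or a BeadChip. For the difference of differences, a gene is shown by a passing probe detected in both Treg groups where it has one.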

Additional observations from a re-analysis of the deposited data

Results flagged for a closer look

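The tumour minus spleen difference of Treg differed from that of conventional CD4 cells for 22 genes and from that of CD8 cells for 38 genes, by a test of the difference itself. Each value here is the Treg difference minus the other difference on the log2 scale. Against conventional CD4 and then CD8 cells, Fam83g gave 3.20 and 3.22, Mmp9 2.81 and 2.91, Il10 2.35 and 2.50, Srxn1 2.52 and 2.11, and Havcr2 2.29 and 1.66. Aldoc gave 1.88 and 2.09, Snx9 1.97 and 1.88, Neb 1.32 and 1.28, Piwil2 1.45 and 1.30, and Lmna 1.37 and 1.5. Below 0 in the same order were Tbc1d4 at -3.82 and -3.79, Gm4956 at -2.61 and -2.61, Zfp608 at -1.36 and -1.26, and Sh3bgrl2 at -0.82 and -0.81 on a probe undetected in tumour Treg. Nrp1 gave -2.03 and -2.99, and Rgs1 -3.63 and -2.53.

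Against CD8 cells alone Itgae gave 2.12, Slc16a3 2.06, Ndrg1 1.96, Odc1 1.44 and Foxp3 1.02, while Izumo1r gave -1.95 and Gzmk -3.35. The Foxp3 value came from 1 of 4 probes, which lay close to the lowest detected signal in conventional CD4 cells. Against conventional CD4 cells alone Itgb1 gave -1.47 and Tnfsf11 -2.46. Among the 5065 detected probes without a gene name, which the comparison did not use, 82 passed between tumour and spleen Treg, 40 of them higher and 42 lower.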

How the results depend on the processing

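Median scaling gave 705 genes called, 655 higher and 50 lower, and 331 of the 402 genes remained called. It gave 45 genes differing from conventional CD4 cells and 59 differing from CD8 cells. The count against conventional CD4 cells was 37 with the deposited value table, 37 without background correction and 40 with an offset of 50, and the count against CD8 cells was 21 with only the groups of the comparison in the fit. Among the 112 calls of the genes followed, the Treg arrays alone ended 29, no detection filter 14, 1 probe per gene 11 beside Foxp3, median scaling 10, no background correction 7, an offset of 50 ended 5, and the deposited table and the block 4 each. Leaving out 1 array or 1 BeadChip gave 98 to 380 genes called, 78 to 268 higher and 20 to 112 lower, all lowest without replicate 2 of every group. The counts of differences ranged from 0 to 32 against conventional CD4 cells and from 0 to 50 against CD8 cells, with fewer arrays in each fit. With the BeadChip as replicate block 418 genes were called, 369 of them among the 402, with 296 higher and 122 lower, 21 differing from conventional CD4 cells and 42 from CD8 cells. Beyond the calls given above, the block changed none of the calls of the 127 genes followed.

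The differences that turned sign belonged to genes that were not called, apart from Foxp3, which was -0.684 where its brightest probe stood for the gene. Cd3e was 0.302 with median scaling, and ranged from -0.087 to 0.034 with arrays left out (0.031 without B16_Treg replicate 3, the third tumour Treg array). Il2ra ranged from -0.017 to 0.231, Itgam from -0.002 to 0.146 and Itgb1 from -0.587 to 0.361, with 0.172 without replicate 1. Median scaling gave 0.044 for Nrp1, 0.033 for Rgs1 and 0.226 for Itgb1. Probes under the lowest detected signal limit differences of dim genes to bounds. The causes of these shifts were not tested.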
